A study of Mus musculus with 4 samples.

Results

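Among 25208 tumor cells of subcutaneous Lewis lung carcinoma (LLC), a mouse lung cancer line, 222 were positive for major histocompatibility complex (MHC) class II. Positive here means at least 10 counted transcripts of class II genes, and other tumor cells held fewer or none. The cells were sought in 4 single-cell RNA-seq (scRNA-seq) libraries with 55805 barcodes in all, each barcode standing for 1 captured cell. A tumor cell was a barcode with at least 2000 unique molecular identifiers (UMIs, counted transcript molecules), at most 20% mitochondrial UMIs, at least 3 UMIs of Rhox5 (a homeobox gene that marks LLC cells here), none of the leukocyte genes Ptprc and Csf1r, and at most 2 UMIs of C1qa, C1qb, C1qc and Lyz2 together. A class II positive tumor cell had, in addition, at least 10 UMIs of H2-Aa, H2-Ab1, H2-Eb1 and Cd74 together. The cells were thus selected on the measured UMIs of 11 genes, so their values are descriptions and were not tested.

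The tumors grew in female C57/BL6N mice aged 6-8 weeks, from 1 injected line. Hypofractionated radiotherapy (RT) began at a mean volume of 100 mm3 and gave 24 Gy in 3 fractions of 8 Gy on days 7 to 9 after injection, and tumors were taken 72 h later. RT1, RT2 and RT3 were 1 irradiated tumor each, and NT was a single library of 3 mock-treated tumors pooled, so NT has no replicate and no test of RT against NT was made. The libraries held 10141 (NT), 15346 (RT1), 14994 (RT2) and 15324 (RT3) barcodes and 69667759, 78585759, 108699844 and 85660188 UMIs. RT2 stood apart in its table, which listed 18605 genes where the others listed 32285, and in which no barcode was above 11.95% mitochondrial UMIs, against 91.5% to 97.0% in the others. RT2 also gave 144 of the 222 cells, with 47 from NT, 8 from RT1 and 23 from RT3, so the counts of each gene list are given with and without it. Each pair of libraries shared 182 to 277 barcode strings, and 0 of them were a class II positive tumor cell in both libraries.

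MHC class II molecules are pairs of an alpha and a beta chain that display peptides from the endosome to CD4 T cells. H2-Aa and H2-Ab1 encode the chains of I-A, H2-Eb1 encodes the beta chain of I-E, Cd74 is the invariant chain that guides the pair to the endosome, and H2-DM exchanges the peptide. Dendritic cells, B cells and macrophages make class II, and other cells, tumor cells among them, can do so when interferon gamma acts through Irf1 and other factors on Ciita, the class II transactivator. Ciita binds no DNA itself and works through RFX, CREB and NF-Y factors bound to the class II promoter, where NF-Y holds the Y box, with the core ATTGG. Genes that interferon gamma induces more directly, such as the guanylate-binding proteins, often carry an interferon-stimulated response element (ISRE) or a gamma-activated site (GAS) instead.

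The promoters of 5 class II and interferon genes measured below are shown with 1 motif match each. The bases come from RefSeq (GRCm38.p6) and run 5′ to 3′ along the gene's strand upstream of its start, with the match in capitals. H2-Aa, which helped choose the cells, has ATTGG 48 to 44 bases before its start, H2-Eb1 59 to 55 (and, not capitalized, another on the opposite strand at 35 to 31, beyond the bases shown) and the peptide editor chain H2-DMb1 61 to 57, all on chromosome 17. Gbp2 (chromosome 3) has the ISRE letters (GAAA, any 2 bases, GAAA) on the opposite strand 59 to 50 bases before its start, and Igtp (chromosome 11) has it 34 to 25 bases before, besides the GAS letters elsewhere in its promoter.
H2-Aa: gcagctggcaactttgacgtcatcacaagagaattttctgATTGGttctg
H2-Eb1: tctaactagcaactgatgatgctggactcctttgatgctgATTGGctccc
H2-DMb1: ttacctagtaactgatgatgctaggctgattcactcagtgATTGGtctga
Gbp2: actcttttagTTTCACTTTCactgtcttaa
Igtp: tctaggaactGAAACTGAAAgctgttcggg
Each motif was searched on both strands in the 250 bases before the start. ATTGG was in 8 of the 8 class II chain and editor genes that had a promoter (of 10), in 12 of 17 class I genes and in 5 of 15 interferon gamma-induced genes, against 37.5% of all 27025 promoters. The ISRE letters were in 0 of these 8, in 3 of 17 class I genes and in 10 of 15 interferon gamma-induced genes, against 3.46% of all promoters. TTCNNNGAA, the GAS letters, was in 1 of 8, 1 of 17 and 8 of 15, against 8.13% of all. A match of letters is a description of the window and not a binding site.

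The label of these cells was set against the marker genes of tumor cells, of the leukocytes that normally make class II and of endothelial cells. Rhox5 had 1227 counts per 1000000 UMIs (CPM) in NT, 1268 in RT1, 1074 in RT2 and 1152 in RT3, but all tumor cells were selected on it. Krt8, an epithelial keratin that the rule did not use, had 764, 804, 721 and 733 CPM in the class II positive cells. Other tumor cells of the same library and depth had 731, 480, 618 and 650 CPM of Krt8, a difference that was not called (log2 fold change 0.26, edgeR adjusted p = 0.297). The 4 keratins of the tumor marker list (Krt7, Krt8, Krt18 and Krt19) summed to 791, 804, 748 and 741 CPM, and to 18.01 to 27.9 CPM in macrophages of the same libraries.

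The leukocyte lists were low but not at 0, in cells that the rule had already kept nearly free of 6 leukocyte genes. A list of 10 pan leukocyte genes held 58.3 (NT), 155 (RT1), 85.0 (RT2) and 78.5 (RT3) CPM, above the 31.7, 21.3, 56.3 and 26.7 CPM of matched tumor cells in each library and below the 7150 CPM or more of macrophages. Its most abundant gene in NT, RT1 and RT3 was Fcer1g, the Fc receptor gamma chain of myeloid cells, with 17, 4, 37 and 11 UMIs against 1, 1, 80 and 2 in matched cells, and in RT2 it was Arhgdib, with 55 UMIs against 117 in matched cells. Matched cells were 3 times as many. Of the list's 10 genes 2 were tested and Fcer1g was called, but it passed the filter on low counts only through the class II positive sums. With no filter 1 of 10 was called, Fcer1g (1.54, edgeR adjusted p = 2.99e-05). The filtered call was lost in 4 of 13 alternatives, among them without NT and without RT1 (edgeR adjusted p = 0.113 and 0.128). Spi1, which encodes the myeloid factor PU.1, had 0, 0, 1 and 0 UMIs. A list of 12 macrophage genes held 63.1 (NT), 108 (RT1), 49.6 (RT2) and 116 (RT3) CPM, against 25.7, 42.6, 60.5 and 61.1 CPM in matched tumor cells and at least 8773 CPM in macrophages. Its most abundant gene was Cd14, with 27, 6, 41 and 18 UMIs, and Adgre1 (F4/80) had 1 UMI in NT and none elsewhere. For every 100 class II UMIs the class II positive cells held 4.55, 6.80, 3.34 and 6.35 macrophage UMIs, where macrophages held 51.0, 509, 286 and 310. Both parts of this ratio were limited by the rule, which set a floor on class II and a ceiling on other macrophage genes, so it is a description. Of the dendritic cell genes, the defining Xcr1 and Clec9a had 0 UMIs in every library, and Flt3 had 2, 0, 0 and 1. Ccr7, the receptor of migrating dendritic cells, had 5, 0, 11 and 5 UMIs in 1, 0, 4 and 4 class II positive cells, against 1, 0, 7 and 2 UMIs in the matched cells, which were 3 times as many. Cd209a had 3, 0, 0 and 0 UMIs, Batf3 0, 0, 3 and 1 and Ccl22 0, 0, 1 and 0, so dendritic cell transcripts were present in a few cells, and their part in the results was not tested. The dendritic list summed to 855, 681, 975 and 692 CPM, against 552, 608, 773 and 560 in matched cells, and was carried by Fscn1 and Cst3, which LLC cells also express. Of 3 dendritic genes tested against matched cells 0 were called, with 3 higher at an unadjusted edgeR p under 0.05. With all other tumor cells as the comparison 3 of 10 pan leukocyte, 0 of 11 macrophage and 1 of 8 dendritic genes (Ccr7) were higher, where 1.89% of all genes tested were. Of 7 monocyte genes (Ly6c2, Ccr2, Plac8, Chil3, Fn1, F10 and Itgam) only Fn1 was tested against matched cells, and it was lower. Against all other tumor cells 1 of 6 monocyte genes was higher and 1 lower, where 0.38% of all genes tested were lower. B and plasma cell genes gave 4, 0, 8 and 3 UMIs, T and NK cell genes 0, 0, 11 and 0, and neutrophil genes 0, 0, 12 and 1.

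Endothelial genes were also somewhat higher in the class II positive cells. The list of 6 (Pecam1, Cdh5, Kdr, Plvap, Egfl7 and Tie1) summed to 33.99, 30.9, 65.6 and 37.4 CPM, against 14.2, 31.97, 27.2 and 25.4 CPM in matched cells, so NT, RT2 and RT3 lay above them and RT1 did not. Its most abundant genes were Plvap and Egfl7, which were not called (0.97 and 0.60, edgeR adjusted p = 0.145 and 0.525). The defining markers Pecam1, Cdh5, Kdr and Tie1 gave 1, 1, 51 and 4 UMIs in 1 of 47, 1 of 8, 5 of 144 and 1 of 23 cells, against 3 of 141, 0 of 24, 17 of 432 and 1 of 69 matched cells. With all other tumor cells as the comparison 4 of the 6 genes were higher (Pecam1, Cdh5, Kdr and Plvap), where 1.89% of all genes tested were, and Kdr could be tested there only through the class II positive sums. The matched comparison described further on was therefore also made without the barcodes that held a UMI of these 4 markers.

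**Figure D1:**
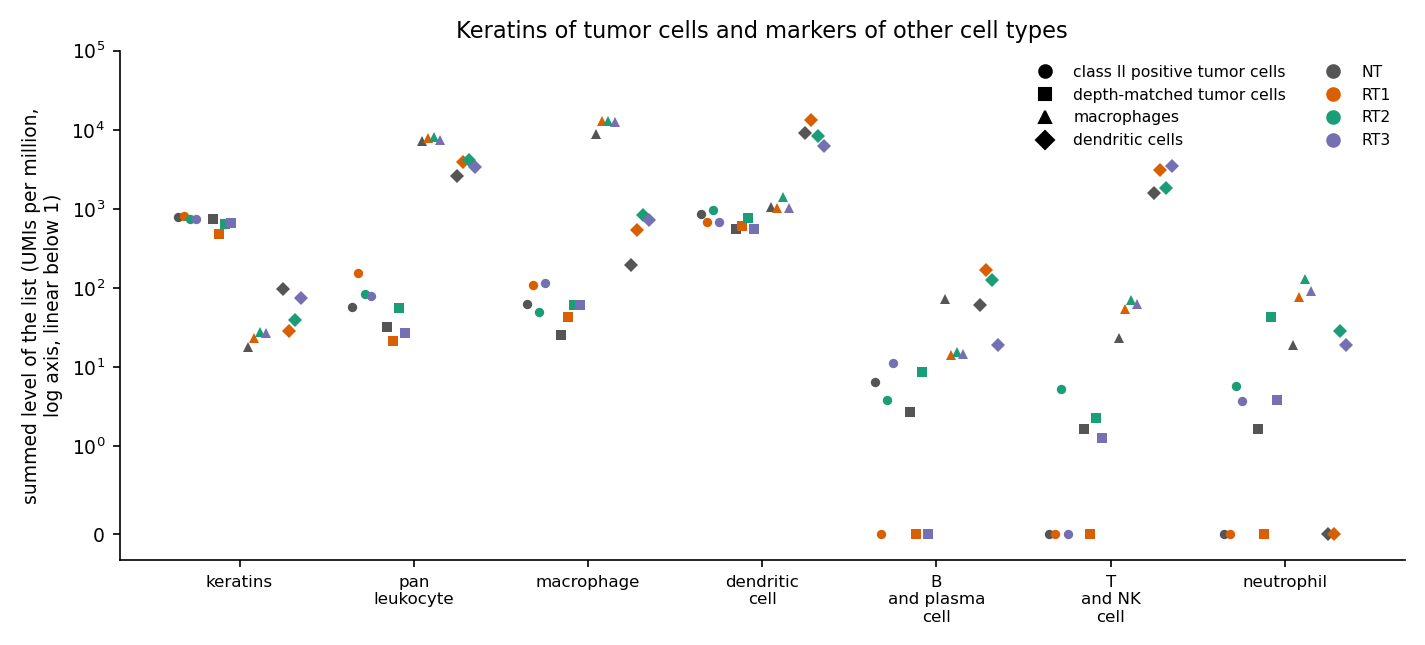
Summed CPM (log scale, linear below 1) of marker lists in class II positive and matched tumor cells, macrophages and barcodes with dendritic cell genes. The lists are 4 keratins and the pan leukocyte, macrophage, dendritic, B and plasma, T and NK and neutrophil lists. The monocyte list is not drawn. Each list has 1 point for each of NT, RT1, RT2 and RT3. Keratins of the class II positive cells lie at 741 to 804 CPM, and their macrophage markers lie at 49.6 to 116 CPM, below the 8773 CPM or more of macrophages.

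Within the cells, class II itself was a small part of the transcriptome. The summed class II level was 1387 CPM in NT, 1593 in RT1, 1484 in RT2 and 1825 in RT3, and 19.7, 10.7, 55.6 and 19.1 CPM in matched tumor cells. Macrophages held 17214, 2536, 4566 and 4053 CPM, and a class of barcodes with dendritic cell genes held 21679 to 26752 CPM. The median cell had 13, 12, 15 and 16 class II UMIs, with a range of 10 to 167 over all 222. H2-Aa gave 41.0%, 35.9%, 35.4% and 38.3% of these UMIs, H2-Ab1 29.3%, 29.1%, 32.7% and 30.1%, H2-Eb1 22.8%, 31.1%, 24.5% and 24.6%, and Cd74 7.00%, 3.88%, 7.37% and 6.97%. In macrophages H2-Aa gave 40.8%, 41.7%, 37.6% and 43.3%, H2-Eb1 22.9%, 19.9%, 21.996% and 19.8%, and Cd74 7.58%, 6.55%, 10.1% and 7.31%. The gap between the classes was widest for H2-Eb1 in RT1, where the class II positive cells are 8. All 4 genes were detected together in 31 of 47, 2 of 8, 90 of 144 and 11 of 23 cells.

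Class II positive cells were found in every tumor library but in unequal numbers. They were 0.781% of tumor cells in NT (exact 95% Clopper-Pearson interval 0.574 to 1.04), 0.129% in RT1 (0.0555 to 0.253), 2.51% in RT2 (2.12 to 2.95) and 0.318% in RT3 (0.202 to 0.477). These intervals cover counting error only. RT2 was above NT, and RT1 and RT3 were below it, none of the intervals of the RT libraries reaching that of NT. The RT mean was 0.986% ± 1.32 (SD, n = 3), and it lay 0.205 percentage points above NT, a difference smaller than the SD. Without RT2 the RT mean was 0.223% and lay -0.558 points from NT, below it, so leaving out 1 library turned the direction. Over all barcodes past the depth and mitochondrial limits, of which tumor cells were fewer in RT, the shares were 0.593%, 0.0767%, 1.29% and 0.220%. With that denominator the RT mean was 0.529% with RT2 included and lay -0.0639 points from NT, so the choice of denominator turned the direction as well. The order of the libraries was the same after each cell was thinned to 2000 UMIs, where the shares with at least 3 class II UMIs were 0.714%, 0.129%, 2.11% and 0.442%.

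**Figure D2:**
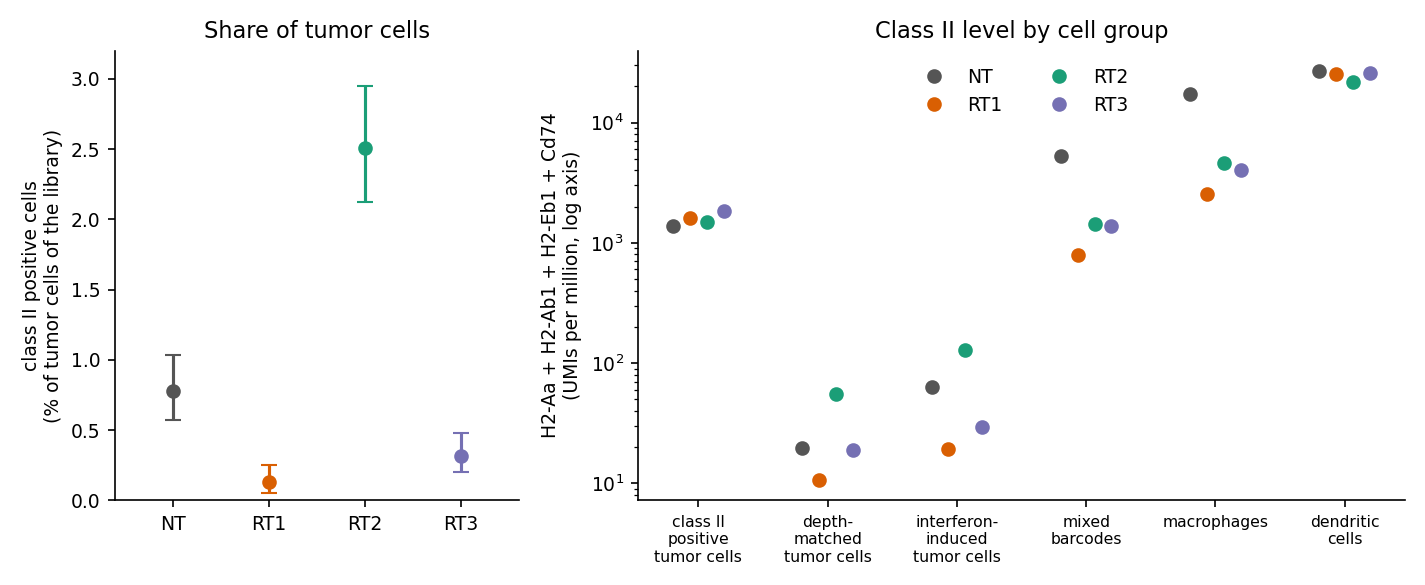
Class II positive cells as a percentage of tumor cells with exact 95% intervals, and the summed class II CPM (log scale) of cell groups, for NT, RT1, RT2 and RT3. Mixed barcodes hold Rhox5, Ptprc or Csf1r and at least 10 UMIs of C1q genes and Lyz2, and the dendritic group is barcodes with dendritic cell genes. The share is 2.51% in RT2 and 0.129% to 0.781% in the others, while the class II level within the positive cells lies between 1387 and 1825 CPM.

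The threshold of 10 UMIs cut through a continuous range. The 76 cells just inside it (10 to 12 class II UMIs) held 638 CPM of Gbp2, an interferon gamma-induced GTPase, and the 131 cells just outside it (7 to 9 UMIs) held 613. Over the list of interferon gamma-induced genes the sums were 2176 and 2009 CPM, and over the class I list 17398 and 17681. Tumor cells with 3 to 6 class II UMIs (656 cells) held 440 CPM of Gbp2, 1446 of the interferon gamma list and 15944 of the class I list. The 20602 tumor cells with 0 class II UMIs held 128, 498 and 11640 CPM. These sums pool libraries that hold different shares of each bin, and single libraries moved in different directions across the threshold. From 7 to 9 UMIs to 10 to 12 UMIs, Gbp2 went from 405 to 423 CPM in NT, from 854 to 152 in RT1, from 655 to 808 in RT2 and from 688 to 207 in RT3. The interferon gamma list went from 947 to 1588, from 2749 to 305, from 2371 to 2646 and from 1819 to 1447 CPM. In NT, RT1, RT2 and RT3 in turn, 29, 7, 77 and 18 cells had 7 to 9 UMIs, and 20, 4, 47 and 5 had 10 to 12. The values of RT1 and RT3 thus rest on few cells, and whether the libraries differ was not tested. Of the cells inside, 150 had 10 to 19 class II UMIs, 66 had 20 to 49 (7, 0, 51 and 8 by library) and 6 had 50 or more.

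**Figure D3:**
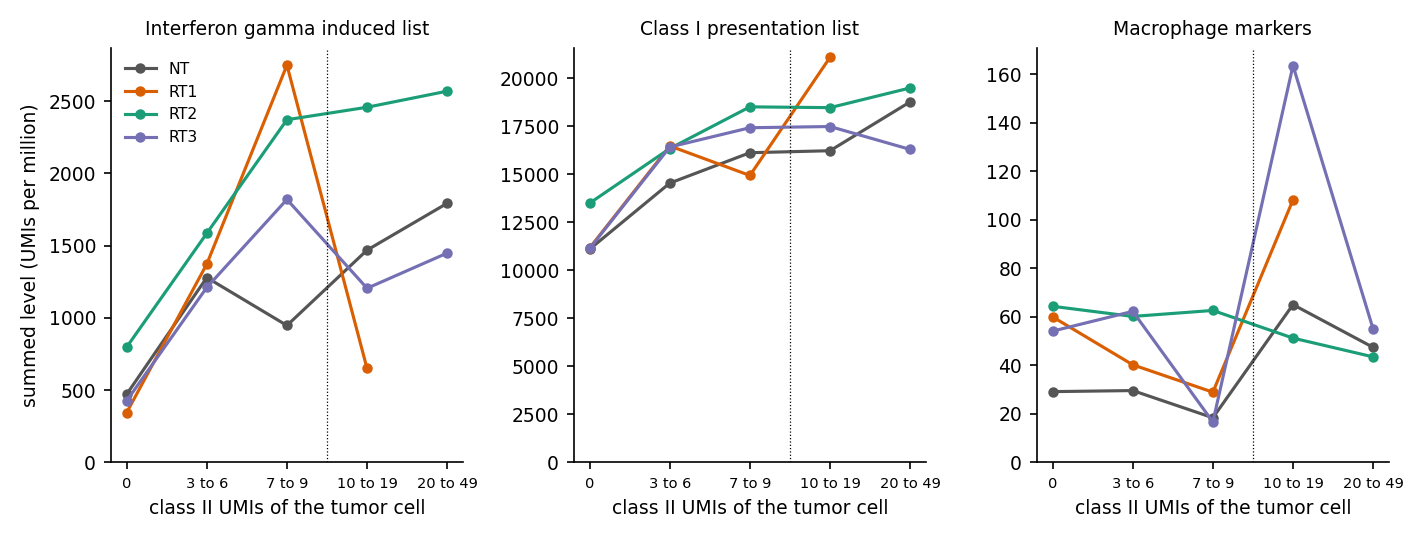
Summed CPM of the interferon gamma-induced list, the class I list and the macrophage markers against the class II UMIs of tumor cells in bins, 1 line for each of NT, RT1, RT2 and RT3, with the threshold of 10 dotted. The interferon gamma list lies at 345 to 798 CPM at 0 class II UMIs and at 947 to 2749 CPM at 7 to 9, and from there to 10 to 19 it goes up in NT and RT2 and down in RT1 and RT3. The points of RT1 and RT3 rest on 7 and 18 cells at 7 to 9 and on 8 and 14 cells at 10 to 19.

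To ask what else set these cells apart from other LLC cells, each was matched to 3 tumor cells with under 10 class II UMIs of the same library and depth (141, 24, 432 and 69 cells), and UMIs were summed per library. Cells are not replicates, so the test rests on 4 pairs of sums, with the library as a block. Of 7925 genes tested beside those of the rule, 116 (1.46%) were higher and 28 (0.353%) lower in class II positive cells (edgeR quasi-likelihood test, Benjamini-Hochberg adjusted p under 0.05 and a log2 fold change past 0.5). The median log2 fold change of all genes was -0.00. DESeq2 called 56 (0.707%) and 6 (0.0757%) on the same sums, and with all other tumor cells in place of the matched ones edgeR called 239 (1.89%) and 48 (0.38%) of 12626. Of the 116 higher genes 88 passed the filter on low counts (14.2 CPM in 2 sums) in the matched sums alone, and the other 28 passed only through the class II positive sums, so their high values helped to make them testable. For such genes named below the test given is the one with no filter, in which 156 of 14989 genes (1.04%) were higher and 43 (0.287%) lower. The size of its adjusted p depends on the fit and can be far smaller than with the filter. For Cxcl9 the edgeR adjusted p was 2.54e-50 with no filter and 1.23e-22 with it, and for Il1b 2.33e-29 and 4.92e-15. Of the 116 genes 82, and of the 28 genes 23, lay the same way in all 4 libraries. The calls rest most on RT2: without it 56 genes (0.899%) were higher and 8 (0.128%) lower, and 50 of the 116 were called again among the 94 still tested. Without NT the counts were 76 and 17, and without RT1 96 and 17. Of 46 called genes that the naming rules give, 28 were called again without RT2, 15 lost the call, 1 turned and 2 had too few counts to test. Without the barcodes that held defining endothelial markers, left out after their values were seen, 108 genes (1.37%) were higher and 26 (0.33%) lower, and 92 of the 116 and 17 of the 28 were called again. Without the library block 1 gene, Il1b, was higher and 0 were lower, with 145 and 93 at an unadjusted p under 0.05. The 8 cells of RT1 are the thinnest sum, in which 1 UMI weighs 15.5 CPM.

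Most genes that interferon gamma induces and that could be tested were higher. Of 14 tested genes of the list (24 measured), 13 were higher and 0 lower, with a median log2 fold change of 1.51. Without RT2 10 of 12 were higher, and 6 of the 7 that then passed the filter in matched cells alone. Gbp3, Gbp4 and Cxcl9 were among those that then passed only through the class II positive sums. DESeq2 called 11 of the 14, 8 of the 9 that passed the filter in matched cells alone were higher, and with no filter 15 of 23 were higher and 1 (Nos2) lower. Gbp2 had 494, 217, 705 and 367 CPM in the positive cells of NT, RT1, RT2 and RT3 in turn, and 168, 63.9, 240 and 122 CPM in matched cells. The groups differed in the same direction in every library (log2 fold change 1.62 ± 0.12 SE, edgeR adjusted p = 1.35e-19). A Gbp2 UMI was seen in 85.1%, 62.5%, 91.7% and 82.6% of the positive cells and in 44.7%, 12.5%, 58.3% and 36.2% of the matched ones. Igtp, an immunity-related GTPase, had 191, 124, 353 and 187 CPM against 73.7, 32.0, 136 and 70.0 (1.44 ± 0.13, edgeR adjusted p = 1.28e-15). Gbp4, another guanylate-binding protein, had 29.1, 30.9, 57.8 and 22.4 CPM against 8.19, 10.7, 14.4 and 1.27 (2.04 ± 0.24, edgeR adjusted p = 9.17e-15 with no filter). The GTPases Ifi47 and Iigp1 were higher by 1.42 and 1.34 on the log2 scale. Nos2, the inducible nitric oxide synthase, was the one tested gene of the list not called, with a log2 fold change of -1.19 (edgeR adjusted p = 0.098, and -1.23, adjusted p = 0.0277, with no filter). The Gbp and immunity-related GTPase genes are families of near copies, and how reads shared between copies were counted is not given in the sources used here.

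The interferon gamma list was not highest in these cells among LLC cells. Cells selected for type I interferon-induced genes (at least 10 UMIs of Ifit1, Ifit3, Isg15 and Rsad2) held 3200, 2598, 2713 and 2402 CPM of the interferon gamma list, against 1516, 650, 2522 and 1290 in the class II positive cells, which lay below them in every library. For Gbp2 they held 801, 537, 552 and 485 CPM, above the class II positive cells in NT, RT1 and RT3. For the class I list they held 14428, 16209, 17723 and 14768 CPM, where the class II positive cells held 16645, 21080, 18934 and 16864, which is more in each library. The 2 groups of cells were not tested against each other.

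The interferon gamma pathway above these genes was called in part. Of 13 tested genes of the receptor and signaling list, 3 were higher and 0 lower, and without RT2 2 of 13 were higher. Irf1, a transcription factor that interferon gamma induces, had 1029, 1454, 784 and 1144 CPM against 622, 666, 593 and 597 (0.77 ± 0.11, edgeR adjusted p = 1.27e-07), and it was higher in every library. Stat2, a transcription factor downstream of type I interferon, passed narrowly (0.69, edgeR adjusted p = 0.0483) and lost its call in 11 of 17 alternatives. Socs3, a feedback inhibitor of cytokine receptors, had a log2 fold change of 0.44 and an edgeR adjusted p of 0.0148, below the fold threshold.

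Class I presentation, which loads peptides from the cytosol for CD8 T cells, was also higher, with smaller folds. Of the 19 genes of the list, all tested, 15 were higher and 0 lower, with a median log2 fold change of 0.82. Without RT2 12 of 19 were higher, among them Psmb9 and Psmb10, which then passed the filter only through the class II positive sums. DESeq2 called 14 of the 19. H2-K1, a class I heavy chain, had 2185, 2908, 3099 and 2839 CPM against 1394, 1380, 2154 and 1400 (0.82 ± 0.11, edgeR adjusted p = 2.88e-08). H2-D1 and the light chain B2m were higher by 0.70 and 0.63. Psmb10, a catalytic subunit of the immunoproteasome, had 89.0, 61.9, 86.5 and 56.1 CPM against 27.3, 16.0, 32.4 and 11.5 (1.63 ± 0.18, edgeR adjusted p = 4.1e-11), and its fellow subunit Psmb9 was higher by 1.32. Tapbp (tapasin), which holds class I at the peptide transporter, was higher by 0.68. Nlrc5, the class I transactivator and a relative of Ciita, had 53.4, 46.4, 57.3 and 52.4 CPM against 24.0, 16.0, 27.2 and 33.1 (1.10 ± 0.19, edgeR adjusted p = 2.59e-05). In cells with no UMI of 12 leukocyte genes (C1qa, C1qb, C1qc, Lyz2, Laptm5, Coro1a, Cd52, Cd53, Cd37, Tyrobp, Fcer1g and Spi1) the call of Nlrc5 was lost (0.69, edgeR adjusted p = 0.316). Class I heavy chains are near copies of each other, so their single values are uncertain.

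**Figure D4:**
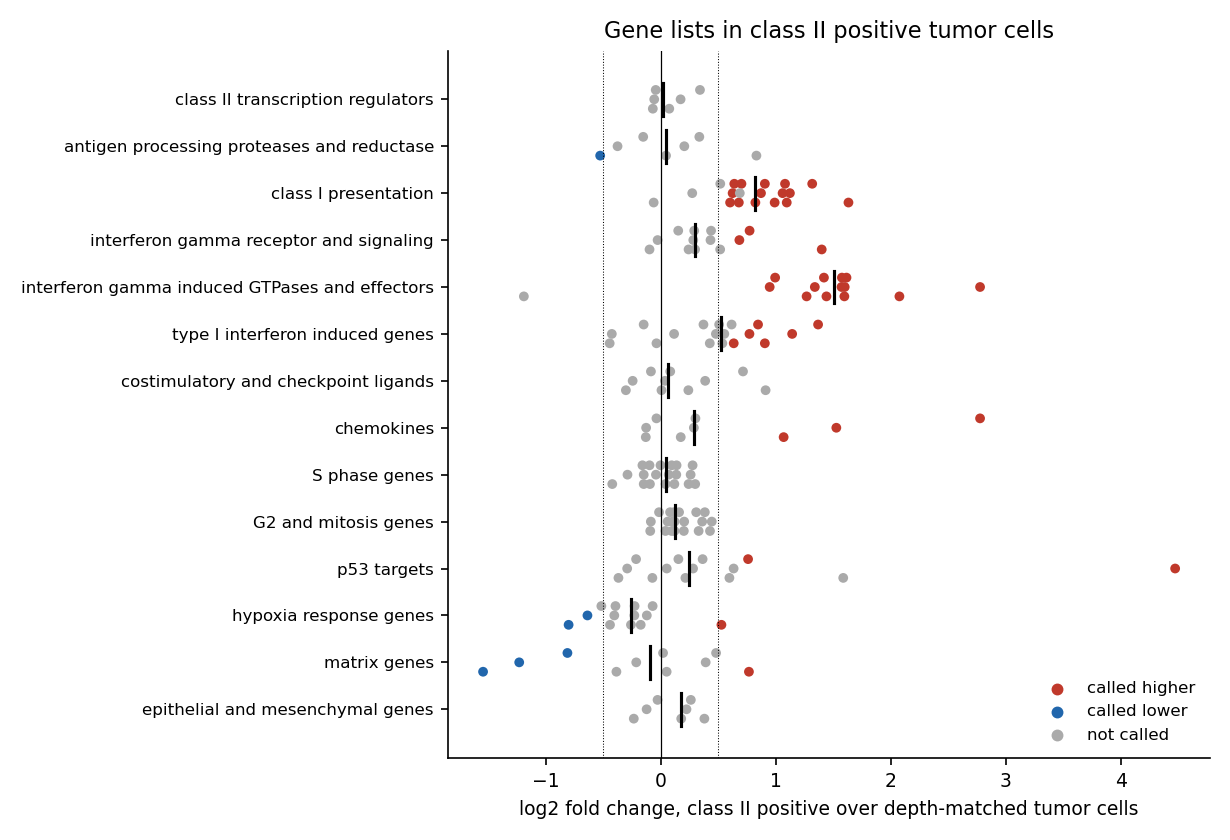
Log2 fold change of each tested gene of the pathway lists, class II positive against matched tumor cells, with called genes in colour and a bar at each list's median. The interferon gamma-induced genes (median 1.51) and the class I genes (median 0.82) lie mostly above 0, and the S phase and mitosis genes lie around 0.

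The rest of the class II machinery was sparse in the matched comparison. Of its 6 peptide editor and minor chain genes, only H2-DMb1, a beta chain of the editor H2-DM, passed the filter on low counts, and it did so through the class II positive sums. It had 24.3, 0, 21.9 and 14.96 CPM against 6.55, 5.33, 6.87 and 6.36 in matched cells, which is 15, 0, 45 and 4 UMIs, and its near copy H2-DMb2 gave 9 UMIs in all. H2-DMa, the alpha chain, gave 7, 0, 53 and 2 UMIs in 41 of the 222 cells, against 4, 0, 18 and 1 UMIs in the 666 matched cells. Ciita gave 2, 0, 26 and 1 UMIs, in 23 of the 222 cells, against 2, 0, 8 and 2 in matched cells. A Ciita UMI was seen in 4.26%, 0%, 13.9% and 4.35% of the class II positive cells, and in 1.42%, 0%, 1.85% and 2.90% of matched cells. Macrophages, whose barcodes were shallower (median 4442 UMIs in NT, against 12459), showed one in 12.4%, 1.70%, 5.75% and 1.56%. H2-Oa gave 5 UMIs, H2-Ob 2 and H2-Eb2 none. With no filter on low counts, 2 of 5 editor and minor chain genes with a UMI were higher, H2-DMb1 (1.66 ± 0.32, edgeR adjusted p = 2.99e-05) and H2-DMa (2.95 ± 0.41, edgeR adjusted p = 4.37e-10), and so was Ciita among the 8 regulators (2.66 ± 0.67, edgeR adjusted p = 0.00767). RT2 gave most of the UMIs of all 3 genes, in the filtered fit DESeq2 did not call H2-DMb1 (adjusted p = 0.11), and without RT2 none of the 6 editor and minor chain genes passed the filter. Of the class II transcription regulators other than Ciita, 6 were tested and 0 called by edgeR or DESeq2, none at an unadjusted p under 0.05, with a median log2 fold change of 0.02, Rfx5 at 0.34 (edgeR adjusted p = 0.80), and without RT2 0 of 4 were called. Of 7 tested endosomal proteases and reductases 0 were higher, and Ctsl, cathepsin L, was lower, with 646, 603, 522 and 681 CPM against 780, 1092, 868 and 996 (-0.52, edgeR adjusted p = 0.000971). Without RT2 0 of 5 of these were called, Ctsl being at -0.45 (edgeR adjusted p = 0.31).

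Of the 3 chemokines called higher, Cxcl9, which draws T cells, differed most. Cxcl9 had 93.9, 15.5, 182 and 120 CPM against 8.19, 5.33, 33.0 and 11.5 in matched cells, the value of RT1 being 1 UMI (2.74 ± 0.18, edgeR adjusted p = 2.54e-50 with no filter). It was seen in 66 of the 222 cells. Cxcl10, a ligand of the same receptor, had 605, 2088, 1250 and 1429 CPM against 192, 203, 764 and 522 (1.53 ± 0.14, edgeR adjusted p = 9.54e-15). Cx3cl1, fractalkine, had 63.1, 92.8, 59.3 and 59.8 CPM against 30.0, 16.0, 35.3 and 15.3 (1.07 ± 0.19, edgeR adjusted p = 4.3e-05). These 3 were the called genes among 9 chemokines tested, and Cxcl1, a neutrophil attractant, was not called (0.30, edgeR adjusted p = 0.171). Without RT2 3 of 7 chemokines were higher, the same 3, of which Cxcl10 alone passed the filter in matched cells. Vcam1, an adhesion molecule for lymphocytes, was higher by 1.08 (edgeR adjusted p = 9.54e-09) and was named after its value was seen. Endothelial cells also express Vcam1 and Cx3cl1. Without the barcodes that held defining endothelial markers the log2 fold changes were 3.67 for Cxcl9, 1.34 for Cxcl10, 0.86 for Cx3cl1 and 0.82 for Vcam1, with edgeR adjusted p of 8.87e-11, 0.00135 and 3.64e-05 for the last 3.

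**Figure D5:**
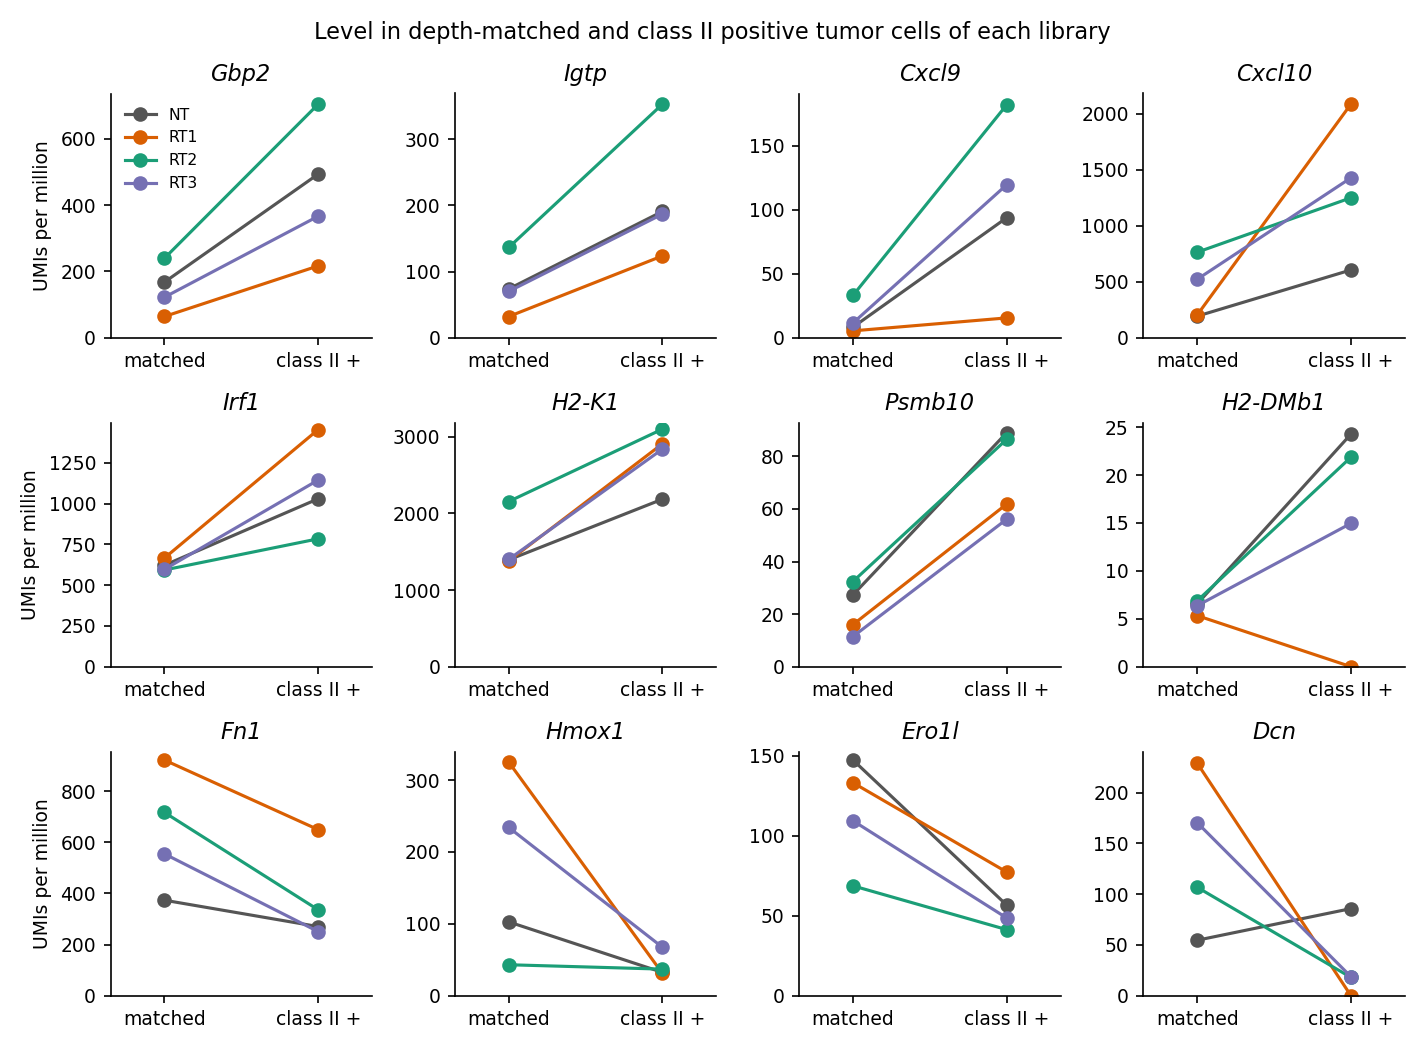
CPM of named genes in class II positive and matched tumor cells, 1 pair of points for each of NT, RT1, RT2 and RT3. Gbp2, Igtp, Irf1 and H2-K1 are above the matched cells in all 4 libraries, and Dcn is above them in NT (85.8 against 54.6 CPM) and below them in RT.

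Genes that type I interferon induces were called in part. Of 18 tested, 6 were higher and 0 lower, with a median log2 fold change of 0.52, and DESeq2 called 1 of them. Among the 6, Ifi27l2a passed the filter only through the class II positive sums, and with no filter 6 of 26 were higher and 0 lower. Without RT2 1 of 11 was higher. Bst2 (tetherin) was higher by 0.77 and Zbp1, a sensor of nucleic acids, by 1.37, with edgeR adjusted p of 4.03e-06 and 7.57e-06, and without RT2 Zbp1 was not called (1.65, edgeR adjusted p = 0.384). Ifit1, Rsad2 and Isg15, antiviral effectors, had log2 fold changes of -0.42, -0.44 and 0.54 (edgeR adjusted p = 0.551, 0.235 and 0.234). The list summed to 835, 913, 1353 and 654 CPM in class II positive cells and to 451, 373, 1050 and 827 in matched cells, so the groups overlap and RT3 lay the other way. A set of LLC cells high in these genes exists in the same libraries, with 5389 to 6435 CPM. Of the class II positive cells 2.13%, 0%, 9.72% and 4.35% belonged to it, against 2.13%, 0%, 8.10% and 4.35% of matched cells. The shares of NT, RT1 and RT3 rest on 1, 0 and 1 class II positive cells and on 3, 0 and 3 matched cells. Their exact 95% intervals in class II positive cells were 0.0539 to 11.3% (NT), 0 to 36.9% (RT1) and 0.110 to 21.9% (RT3). These are too wide to show whether the shares differ. In RT2 the counts were 14 of 144 and 35 of 432.

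Class II acts with costimulatory ligands when a naive T cell is primed. Of 10 tested costimulatory and checkpoint ligands 0 were called by edgeR or DESeq2, with a median log2 fold change of 0.06 and 3 higher at an unadjusted p under 0.05. The count moved with the cells compared, since 0 of 7 were called without RT2, 2 of 8 without the barcodes that carried 4 or more UMIs of pan leukocyte genes, and 3 of 13 against all other tumor cells. Lgals9 (galectin 9, a checkpoint ligand) had 56.6, 108, 104 and 78.5 CPM against 36.6, 53.3, 75.9 and 112 (0.39, edgeR adjusted p = 0.28), above the matched cells in NT, RT1 and RT2 only. It was called in 5 of 17 alternatives, at 0.66 (edgeR adjusted p = 0.00591) without those barcodes and at 0.50 (edgeR adjusted p = 0.0146) against all other tumor cells. Icam1, an adhesion ligand, had -0.30 (edgeR adjusted p = 0.815) against matched cells and 2.14 (edgeR adjusted p = 0.000244) against another draw of matched cells, so its value rested on which cells were drawn. Cd80 gave 1 UMI in all, Cd86 gave 0, 0, 2 and 2, and Cd40 gave 5, 0, 7 and 2. Cd274 (PD-L1) had 34.0, 0, 40.8 and 33.7 CPM against 11.5, 5.33, 28.8 and 28.0 (0.72, edgeR adjusted p = 0.076). Its direction was shared by NT, RT2 and RT3 only, and its absence in RT1 rests on 8 cells. It was higher without the leukocyte-bearing barcodes (0.82, edgeR adjusted p = 0.0298) and against all other tumor cells (0.76, edgeR adjusted p = 0.00761).

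The lower genes were fewer and smaller in change. Fn1, fibronectin, had 270, 650, 336 and 251 CPM against 374, 922, 717 and 555 in matched cells (-0.81 ± 0.12, edgeR adjusted p = 3.25e-07). Ero1l, an oxidase of the endoplasmic reticulum, had 56.6, 77.3, 41.3 and 48.6 CPM against 147, 133, 68.7 and 109 (-0.95 ± 0.16, edgeR adjusted p = 1.42e-05). Hmox1, heme oxygenase, had 32.4, 30.9, 36.9 and 67.3 CPM against 103, 325, 43.0 and 234 (-1.06 ± 0.19, edgeR adjusted p = 2.64e-05). All 3 were lower in every library, by least for Hmox1 in RT2. The call was lost in 7 of 17 alternatives for Hmox1, in 4 for Ero1l and in 2 for Fn1. For Hmox1 these included cells without UMIs of the 12 leukocyte genes (-0.22, edgeR adjusted p = 0.90). Of 13 hypoxia response genes tested, Ndrg1 (-0.80) and Bnip3 (-0.64), a mitophagy receptor, were lower and Ddit4 (0.53), an mTORC1 inhibitor, was higher. The list's median log2 fold change was -0.26, and 1 of the 13 lay above 0. At an unadjusted edgeR p under 0.05, 7 were lower and 1 higher, and DESeq2 called 1 lower and 0 higher. In cells without UMIs of the 12 leukocyte genes 0 of 12 hypoxia genes tested were called, Ndrg1 being at -0.24 (edgeR adjusted p = 0.768), and without RT2 3 of 13 were lower. Ddit4 lost its call in 15 of 17 alternatives and Bnip3 in 9, with a change of sign in 1 more. Other named genes called lower included Ereg, a ligand of the EGF receptor (-1.11), Ern1, a sensor of unfolded proteins (-0.91), and Slc22a23 (-0.85). Gadd45a, a growth arrest gene (-0.77), and Cad, an enzyme of pyrimidine synthesis (-0.68), were among them too. Of these only Gadd45a was called by DESeq2 (adjusted p = 0.00846, against 0.136 for Ereg, 0.648 for Ern1, 0.665 for Slc22a23 and 0.408 for Cad). Ern1 lost its edgeR call in 12 of 17 alternatives, Slc22a23 in 11, Cad in 6 and Ereg and Gadd45a in 5 each, and none of the 5 was called without RT2. Of 10 matrix genes tested, Dcn (decorin) and Lum (lumican) were lower with Fn1, and Thbs1 (thrombospondin 1) was called higher (0.77, edgeR adjusted p = 0.00565), while without RT2 1 was higher (Thbs1) and 1 lower (Fn1). Thbs1 had 90.6, 124, 59.8 and 78.5 CPM against 30.0, 149, 49.9 and 25.4, below the matched cells in RT1. It was seen in 45 of the 222 cells, 5 of which held 44.2% of its UMIs, and macrophages held 1219 to 1718 CPM of it. DESeq2 did not call Thbs1 (adjusted p = 0.43), 4 of 17 alternatives lost the call, and with at least 6 Rhox5 UMIs it turned to -0.54. Dcn had 85.8, 0, 17.98 and 18.7 CPM against 54.6, 229, 107 and 171, above the matched cells in NT and below them in RT. Its UMIs came from 16 of the 222 cells, with 84.2% of them in 5 cells, and DESeq2 did not call it (adjusted p = 0.72).

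Few proliferation genes were called, as was true of all genes tested. Of 19 S phase genes and 20 G2 and mitosis genes tested, 0 were called by edgeR or DESeq2 in either direction, with median log2 fold changes of 0.04 and 0.12 and with 1 and 4 higher at an unadjusted p under 0.05. Over all 7925 genes edgeR called 1.46% higher and 0.353% lower, so 0 calls in lists of this size lies near that share. Without RT2 0 of 18 and 0 of 20 were called. Without the barcodes that carried 4 or more UMIs of pan leukocyte genes 2 of the 20 G2 and mitosis genes were higher, where 1.29% of all genes tested were, and 18 of the 20 lay above 0. The 2 called were the mitotic cyclin Ccnb2 (0.63, edgeR adjusted p = 0.000268, and 0.39, adjusted p = 0.0891, with all barcodes) and Cdc20, which activates the anaphase-promoting complex (0.68, edgeR adjusted p = 0.00628). Against all other tumor cells Cdc20 was higher (0.57, edgeR adjusted p = 0.00368) and Ccnb2 lay below the fold threshold (0.44, edgeR adjusted p = 0.00699), and with no UMI of the 12 leukocyte genes 0 of 20 were called. In the other 15 of the 17 alternatives 0 genes of the G2 and mitosis list were called, and 0 of the S phase list in all 17. Of 14 p53 targets Btg2, an antiproliferative gene, was higher (0.76, edgeR adjusted p = 0.0005), as was Pmaip1 (Noxa), described with the leukocyte genes. Without the same barcodes 0 of 12 p53 targets were called, Btg2 being at 0.49 (edgeR adjusted p = 0.0753), and it was called neither without RT2 (0.78, edgeR adjusted p = 0.20) nor by DESeq2 (adjusted p = 0.0566). Mdm2, the ligase that p53 induces, had a log2 fold change of 0.16 (edgeR adjusted p = 0.851). Of 7 epithelial and mesenchymal genes tested 0 were called by either tool (2 higher at an unadjusted p under 0.05), Vim at -0.03 and Krt8 at 0.26.

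Several of the highest genes came from few cells. Il1b, an inflammatory cytokine of myeloid cells, had 77.7, 46.4, 28.7 and 41.1 CPM against 3.82, 0, 4.42 and 1.27 (3.40 ± 0.28, edgeR adjusted p = 2.33e-29 with no filter, since it passed the filter only through the class II positive sums). It was seen in 19 of the 222 cells, and 5 of them held 70.2% of its UMIs. Pmaip1 (4.46), Basp1 (2.99), a protein of the membrane skeleton, and Srgn (1.91), the proteoglycan of leukocyte granules, passed the same way and were seen in 11, 17 and 32 cells (log2 fold changes with no filter), where Gbp2 was seen in 196. Barcodes with at least 4 UMIs of 10 pan leukocyte genes numbered 2 of 47, 2 of 8, 12 of 144 and 1 of 23, against 3, 0, 17 and 1 of the matched cells. In NT the 2 such barcodes held 3243 CPM of Il1b and 14714 CPM of class II, and the other 45 held 11.6 and 1109 CPM. In RT3 the single one held 10738 CPM of class II and no Il1b.

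Gbp2 is given with these barcodes apart. It was at 237, 0, 564 and 0 CPM in them, the zeros resting on 2 barcodes in RT1 and 1 in RT3, and at 499, 262, 719 and 372 CPM in the other class II positive cells, above the matched cells in every library. Without these barcodes, left out after their values were seen, 101 genes (1.29%) were higher and 35 (0.448%) lower, and 80 of the 116 and 22 of the 28 were called again. The counts were 13 of 14 for interferon gamma-induced genes and 15 of 19 for class I. Il1b, Pmaip1, Basp1 and the Fc receptor gamma chain Fcer1g (1.54 with no filter) then had too few counts to test, and Srgn was not called (0.61, edgeR adjusted p = 0.77). In cells with no UMI of the 12 leukocyte genes, 74 genes (1.06%) were higher and 11 (0.158%) lower, with 13 of 13 and 14 of 19 for the same lists. There the calls of Hspa1a, a heat shock protein (2.05 before, -0.25 then), and Tmsb4x, thymosin beta 4 (1.72 before, 0.44 then), were lost. Slamf8, a receptor of myeloid cells that also passed only through the class II positive sums, was higher by 1.98 with no filter (edgeR adjusted p = 2.28e-07). Its log2 fold change was 1.37 without the leukocyte-bearing barcodes and 2.09 with no UMI of the 12 leukocyte genes, where it missed the threshold (edgeR adjusted p = 0.0531), and without RT2 it had too few counts to test. Barcodes in the top 8% of doublet scores were 14.9%, 12.5%, 10.4% and 21.7% of the class II positive cells and 9.93%, 0%, 6.02% and 7.25% of the matched ones. Their part in the remaining differences was not tested beyond leaving them out, which gave 115 higher and 17 lower genes.

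Radiation was compared within the class II positive cells by size alone. Of 3649 genes past a minimum of 50 CPM in NT or in the RT mean, 28 (0.767%) were higher and 26 (0.713%) lower than NT by a log2 ratio past 1 in each RT library. With a library left out the rule is easier to pass, and the counts were 33 and 41 without RT1, 68 and 66 without RT2 and 100 and 69 without RT3. Neither the interferon gamma-induced genes (9 past the minimum) nor the class I genes (18) had a member among them. The median log2 ratios of the interferon gamma genes were -1.50, 0.86 and -0.40 in RT1, RT2 and RT3, and those of all genes were -0.03, -0.16 and -0.01, so the RT libraries did not share a direction. C3, the central complement component, was higher, at 17.8 CPM in NT against 77.3, 127 and 74.8 in RT, that is 11, 5, 262 and 20 UMIs. The ratios were 2.19, 2.78 and 2.04 on the log2 scale, against 0.55, 1.83 and 1.25 in other tumor cells. Rsad2 (viperin, an antiviral enzyme) had ratios of 2.10, 2.08 and 2.02, against 0.71, 2.19 and 1.52 in other tumor cells. The other named higher genes were Rnaseh1, Cfap20, Llgl1, Tmem248, Ripor1 and Tmsb4x, with ratios nearest to 0 between 1.43 and 1.64. Their RT1 values were 4 or 5 UMIs, and 16 for Tmsb4x. Rnaseh1 (1.68, 1.42 and 1.18) and Llgl1 (1.63, 1.31 and 1.01) were also past a log2 ratio of 1 in other tumor cells of every RT library. In cells with no UMI of the 12 leukocyte genes C3, Rsad2 and Tmsb4x no longer passed in every RT library (mean log2 ratios 0.95, 1.03 and 0.91), and C3 did not pass without the leukocyte-bearing barcodes either (1.29).

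Among the lower genes Cyp51, lanosterol demethylase, stood at 358 CPM in NT against 15.5, 40.3 and 63.6 in RT. Other tumor cells held 264 CPM in NT against 89.9, 47.6 and 92.3 in RT, so the gene was lower in them too. Sqle, squalene epoxidase, stood at 241 CPM in NT and at 30.9, 28.7 and 67.3 CPM in RT, and Msmo1, a sterol oxidase, had 327 CPM and 46.4, 60.3 and 93.5. Idi1, an isomerase of isoprenoid synthesis, was lower by at least 1.45 on the log2 scale in each RT library, and by at least 1.16 in other tumor cells. Crabp1, a retinoic acid-binding protein, went from 112 CPM in NT to 15.5, 21.9 and 26.2 in RT. Lpin1, a phosphatidate phosphatase, had 74.4 CPM and 0, 23.8 and 26.2. Dcn went from 85.8 CPM to 0, 17.98 and 18.7 in class II positive cells, while in other tumor cells it went from 40.6 CPM in NT to 199, 105 and 140 CPM in RT. The RT1 values of these genes are 0 to 3 UMIs.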

How the data were processed

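The authors dissociated the tumors, built 3′ libraries with the SeekOne MM kit and deposited a table of UMI counts per gene and barcode for each library, not normalized. The submitters' processing notes name STAR 2.5.1b, Subread 1.6.4 with featureCounts, Cell Ranger and the build GRCm39, with no role given. The reference at hand was GRCm38, so no gene coordinates are given.

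The deposited counts were joined on gene symbol over 18605 genes. CPM is counts per 1000000 UMIs of the summed cells. Matched cells were drawn 3 for each class II positive cell, within the library and bins of 0.25 log2 UMIs (seed 1). Sums were tested with edgeR 4.0.16 (R 4.3.3) after its filter on low counts, with TMM and the library as a block. DESeq2 1.42.0 and other alternatives are described in the closing section. Doublet scores came from Scrublet in scanpy 1.11.5, and no barcode was removed. RT to NT ratios had 0.5 UMIs added. On simulated members and matched cells, with 7815 genes tested, log2 changes of 2 were called in 100% and of -2 in 93.0% of genes, and changes of 1 and -1 in 37.5% and 35.6%, with 2 false calls of 125. The simulation gave every gene the same fixed dispersion and kept only genes above a minimum summed count. It therefore cannot give the rate of false calls for sparse genes or for genes carried by few cells.

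The cells, gene lists and tests were chosen with earlier results of these data known. Named genes were the class II editors and regulators, up to 4 per list by CPM, called ones first, the 10 highest and 10 lowest called genes that lay the same way in all 4 libraries with at least 20 CPM, and the 8 and 8 with the most extreme RT ratios. Others named are single list members given as examples. A few genes that these rules name are not reported here.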

Additional observations from a re-analysis of the deposited data

Results flagged for a closer look

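In 6 named genes the log2 ratio of class II positive over matched tumor cells (0.5 UMIs added) had one sign in NT and the opposite sign in RT1, RT2 and RT3. In none of them was the difference tested, since NT is 1 library. Dcn had 0.66 in NT and -4.91, -2.55 and -3.06 in RT, with 0 UMIs in RT1. Lum had 1.08 and -2.99, -2.05 and -4.33, with 0 UMIs in RT1 and RT3. The other 4 genes were not called and their ratios were small. Nfyb, a subunit of the Y box factor NF-Y, had -0.34 in NT and 0.44, 0.087 and 0.50 in RT. Cd47, a signal against phagocytosis, had -0.10 and 0.17, 0.11 and 0.060. Ccna2, cyclin A2, had -0.14 and 0.22, 0.025 and 0.23. Ei24, a p53 target, had 0.0053 and -0.048, -0.045 and -0.56.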

How the results depend on the processing

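The main counts were 116 genes higher and 28 lower. They were 56 and 6 by DESeq2, 44 and 0 in cells with at least 20 class II UMIs (edgeR, with 224 and 116 at an unadjusted p under 0.05), 239 and 48 with no depth matching, 74 and 11 with no UMI of 12 leukocyte genes, and 1 and 0 with no library block (Il1b, with 145 and 93 unadjusted). The lower count was also 10 with at least 6 Rhox5 UMIs, 43 with no filter on low counts and 17 without the highest doublet scores. Leaving out 1 library gave 56 (without RT2) to 129 higher and 8 to 29 lower; without NT the counts were 76 and 17, and without RT1 96 and 17. Of the called genes, Hspa1a reversed to -0.25 with no UMI of the 12 leukocyte genes, Bnip3 to 0.36 and Dcn to 0.11 at 20 class II UMIs, Thbs1 to -0.54 at 6 Rhox5 UMIs and Lum to 0.0503 without RT2. The lowest value of Lum with 1 library left out was -2.17 (without NT), and its lowest over all 17 alternatives was -3.50. The cause of these reversals was not tested. Of the other values of single genes against matched cells 1223 stayed on their side of the threshold, 185 lost a call and 18 gained one. Of those of RT against NT 150 stayed and 9 missed the rule (Tmsb4x in 3, C3 and Rsad2 in 2 each, Tmem248 and Crabp1 in 1 each). The RT share lay -0.558 points (without RT2) to 0.634 points from NT, and -0.0639 points over all deep barcodes. Ratios of RT to NT past the rule gave 984 higher and 82 lower genes with no minimum CPM, 9 and 15 at 100 CPM, 145 and 322 at 20 class II UMIs, 14 lower with 2 UMIs added, and 33 to 100 higher and 41 to 69 lower with 1 RT library left out. No paired analysis was possible because NT is 1 library and shares 1 replicate number with RT. The barcodes with at least 4 pan leukocyte UMIs, and those with a UMI of Pecam1, Cdh5, Kdr or Tie1, were left out as alternatives chosen after seeing the data. With 8 cells, RT1 limits what can be seen in single genes.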
